A study of Mus musculus with 18 samples.

Results

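Messenger RNA levels of 32 genes of the unfolded protein response and of protein folding in the endoplasmic reticulum (ER) were examined in mpkCCD cells, an immortalised line of mouse cortical collecting duct. The genes were taken by symbol from a table of read counts for 24111 genes, and all 32 were found. They comprised 16 chaperones and folding enzymes, 4 genes of the sensors and of the target of IRE1 (Ern1, Atf6 and Eif2ak3, with Xbp1), 7 genes of the Atf4 branch and 5 genes of ER-associated degradation and translocation. Per the labels, one group of cells had 0.1 nM dDAVP, an agonist of the vasopressin V2 receptor, for 24 h, and the control group had none. Cells of both groups were of the mpkCCD11 clone. They were grown to confluence on permeable supports in a medium with serum, insulin, dexamethasone and other factors, and had no serum during the treatment or the 24 h before it. Each group had 9 RNA-seq libraries, numbered 1 to 9 in both. The labels do not say whether these came from separate cultures, so p-values measure only the spread between the libraries. dDAVP and control were compared over all libraries and within 3 sets, replicates 1 to 3, 4 to 6 and 7 to 9.

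In the unfolded protein response, misfolded protein in the ER activates IRE1 (encoded by Ern1), PERK (Eif2ak3) and ATF6. IRE1 splices the mRNA of the transcription factor XBP1, and spliced XBP1 and cleaved ATF6 raise transcription of chaperone and degradation genes. PERK phosphorylates the translation factor eIF2, which favours translation of the transcription factor ATF4 and thereby transcription of its targets. Counts per gene show neither splicing of Xbp1, nor phosphorylation, nor translation, and in bulk RNA fewer expressing cells and less RNA per cell cannot be told apart.

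The promoters are shown for elements through which ATF6, XBP1 and ATF4 are known to act. Promoter sequence, as the 250 bases before the start of the RefSeq gene (build GRCm38.p6), was at hand for 29 of the 32 genes and was searched on both strands. The ER stress element (CCAAT, any 9 bases, CCACG) was present in 35 of 27025 promoters of all genes (0.13%). It was present in 7 of 14 promoters of chaperones and folding enzymes (Calr, Canx, Creld2, Dnajc3, Hsp90b1, Hspa5 and Pdia6), in that of Syvn1 and in 0 of 7 of the Atf4 branch. Its second form (ATTGG, any base, CCACG) was present in 0.037% of all promoters and in that of Herpud1. The element of ATF4 and C/EBP proteins, TGATGNAA, was present in 3.91% of all promoters and in those of Asns, Chac1 and Herpud1. TGACGTGG, an element of XBP1 and ATF6 whose last letters are the reverse complement of CCACG, was present in 0.603% of all promoters and in 0 of the 29. A match is a description of letters, not of binding. The stretches below run 5′ to 3′ on the strand of the gene, with the fixed letters of each element in capitals, as the reverse complement where the element lies on the other strand.
Hspa5, chr2:34772020-34772048, plus strand: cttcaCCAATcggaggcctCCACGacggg
Hsp90b1, chr10:86705523-86705666, minus strand: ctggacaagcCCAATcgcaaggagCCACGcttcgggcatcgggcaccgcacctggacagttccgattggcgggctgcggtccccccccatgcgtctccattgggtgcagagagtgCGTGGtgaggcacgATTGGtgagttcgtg
Canx, chr11:50325790-50325828, minus strand: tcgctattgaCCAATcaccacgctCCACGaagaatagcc
Pdia6, chr12:17266481-17266519, plus strand: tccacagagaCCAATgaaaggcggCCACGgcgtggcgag
Creld2, chr15:88819510-88819548, plus strand: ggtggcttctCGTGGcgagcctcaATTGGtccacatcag
Syvn1, chr19:6046522-6046560, plus strand: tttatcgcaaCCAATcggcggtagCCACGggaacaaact
Herpud1, chr8:94386307-94386397, plus strand: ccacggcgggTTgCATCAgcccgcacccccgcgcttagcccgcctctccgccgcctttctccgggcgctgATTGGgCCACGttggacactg
Chac1, chr2:119351039-119351066, plus strand: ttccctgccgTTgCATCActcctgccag

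Hsp90b1 held the ER stress element on each strand, and Herpud1 held the second form together with the ATF4 element.

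The libraries fell apart by set. Library totals were 22.2 to 27.7, 27.3 to 37.8 and 41.4 to 105.9 × 1e6 counts in replicates 1 to 3, 4 to 6 and 7 to 9, and ribosomal protein genes took 20.7 to 28.8%, 0.861 to 10.2% and 10.2 to 16.1% of counts. The protocols in the labels describe a low-input kit and a method made for single cells without saying which library had which, and what the sets are is not stated. dDAVP library 6 stood apart, with 10282 genes detected and correlations across genes of 0.774 to 0.806 with the rest of its set. Replicates 7 to 9 divided across the labels: dDAVP library 7 correlated best with control library 8 (0.964) and dDAVP library 8 with dDAVP library 9 (0.922). The common biological coefficient of variation estimated by edgeR was 0.292, 0.744 and 0.882 in the 3 sets. Levels are given as normalised CPM, counts per 1e6 after TMM scaling, which corrects library totals for composition. Of 8 genes listed for the collecting duct principal cell, Krt8, Krt18, Cdh1 and Epcam are expressed by epithelia in general. Of the 8, 7 were above 0 in all 18 libraries and the water channel gene Aqp3 was at 0 in 5. Krt18 and Krt8 had medians of 2327 and 1106 normalised CPM, against 168 for Aqp2, so the sum of the 8 is no measure of the principal cell alone. That sum differed between sets. In dDAVP libraries it was 11607 to 20901, 2350 to 2555 and 3470 to 8866 normalised CPM in replicates 1 to 3, 4 to 6 and 7 to 9. In control libraries it was 11350 to 16605, 1104 to 1721 and 3736 to 8712. The endothelial markers Pecam1, Kdr and Cdh5 were at 0 in all libraries. Among markers of other cell types, Lrp2 (proximal tubule, up to 10.8 normalised CPM) and Atp6v1b1 (intercalated cell, up to 19.4) were above 0 in all 18 libraries and Cd68 (immune, up to 13.8) in 17. The other markers of these cell types were at 0 in most libraries. Proximal tubule Slc5a2, Slc34a1 and Cubn were at 0 in 18, 15 and 13, and intercalated cell Slc4a1, Foxi1 and Slc26a4 in 14, 16 and 15. Immune Ptprc, Lyz2 and Cd3e were at 0 in 16, 16 and 18, and fibroblast Col1a1, Col1a2, Col3a1 and Pdgfra in 14, 17, 17 and 18. The part of differences in marker levels in the results on sets was not tested. Aqp2, the water channel gene that vasopressin is known to raise, was at 162 to 2764 normalised CPM in dDAVP libraries and at 10.9 to 252 in control libraries; control library 9 (252) lay above dDAVP libraries 6, 8 and 9.

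Per transcript length, Canx, which encodes the lectin chaperone calnexin, had the highest mean level over the 18 libraries, 491 FPKM (fragments per kilobase per 1e6 reads), with a range of 3.17 to 2984. That rank came from replicates 4 to 6, where Canx averaged 1395 FPKM; it averaged 57.7 in replicates 1 to 3 and 19.3 in replicates 7 to 9, where Hspa5, which encodes the luminal chaperone BiP, averaged 351 and 160.5. Next over all libraries were Atf4 (389 FPKM), Hspa5 (186 FPKM), the translocon subunit gene Sec61b (166 FPKM), P4hb, a protein disulfide isomerase (163 FPKM), and Hsp90b1, the HSP90 of the ER (145 FPKM). The ranges of these genes over the libraries overlap, so neighbours in this order are not separated. The lowest means were those of Atf6 (0.586 FPKM), Ern1 (0.1) and Eif2ak3 (0.0544), whereas Xbp1 had 41.5 FPKM. The loci of Pdia3, Pdia6, Manf, Ddit3, Ppp1r15a and Syvn1 overlap protein-coding genes on the other strand (Catsper2, Atp6v1c2, Dcaf1, Mars, Tulp2 and Mrpl49, in that order). With the strand setting of the counting not given in the sources used here, reads from these overlaps cannot be told apart. Manf also overlaps the protein-coding gene Rbm15b on its own strand, and Ddit3 another protein-coding model of its name. For these a strand setting would not separate the reads. Ern1 and Eif2ak3 were below the filter on low counts over all libraries, so 30 genes were tested there, 28 in replicates 1 to 3, 31 in replicates 4 to 6 and all 32 in replicates 7 to 9.

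No gene of the response passed the test for dDAVP in any comparison, by edgeR's quasi-likelihood test with p-values adjusted over all genes. Over all 18 libraries without covariates, 0 of 30 had an adjusted p under 0.05, where 0% of all 10121 genes did. DESeq2 called 0 of the 30 and 12 genes in all, the fit blocked on replicate number called 1 gene, and at an unadjusted p under 0.05 edgeR gave 0 of 30, against 2.15% of all genes. With the set as a term, 0 of 30 were called by edgeR, against 0.079% of all genes (8 genes, and 1 where the fit blocks on replicate number), and 2 of 30 had an unadjusted p under 0.05, against 6.03%. In replicates 1 to 3 the count was 0 of 28, against 0.456% of all genes (41 genes, and 101 with the block). It was 0 of 31 in replicates 4 to 6, against 0%, and 0 of 32 in replicates 7 to 9, against 0% (3 genes with the block). At an unadjusted p under 0.05 there were 5 of 28, 2 of 31 and 2 of 32 in these sets, against 10.5%, 4.61% and 5.19% of all genes. DESeq2 called 0 of the genes examined in each of these fits. The interaction of set and treatment was called for 0 of 30 (0% of all genes) and had an unadjusted p under 0.05 for 3 of 30 (6.63% of all genes), namely Xbp1, Pdia3 and Canx.

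**Figure D1:**
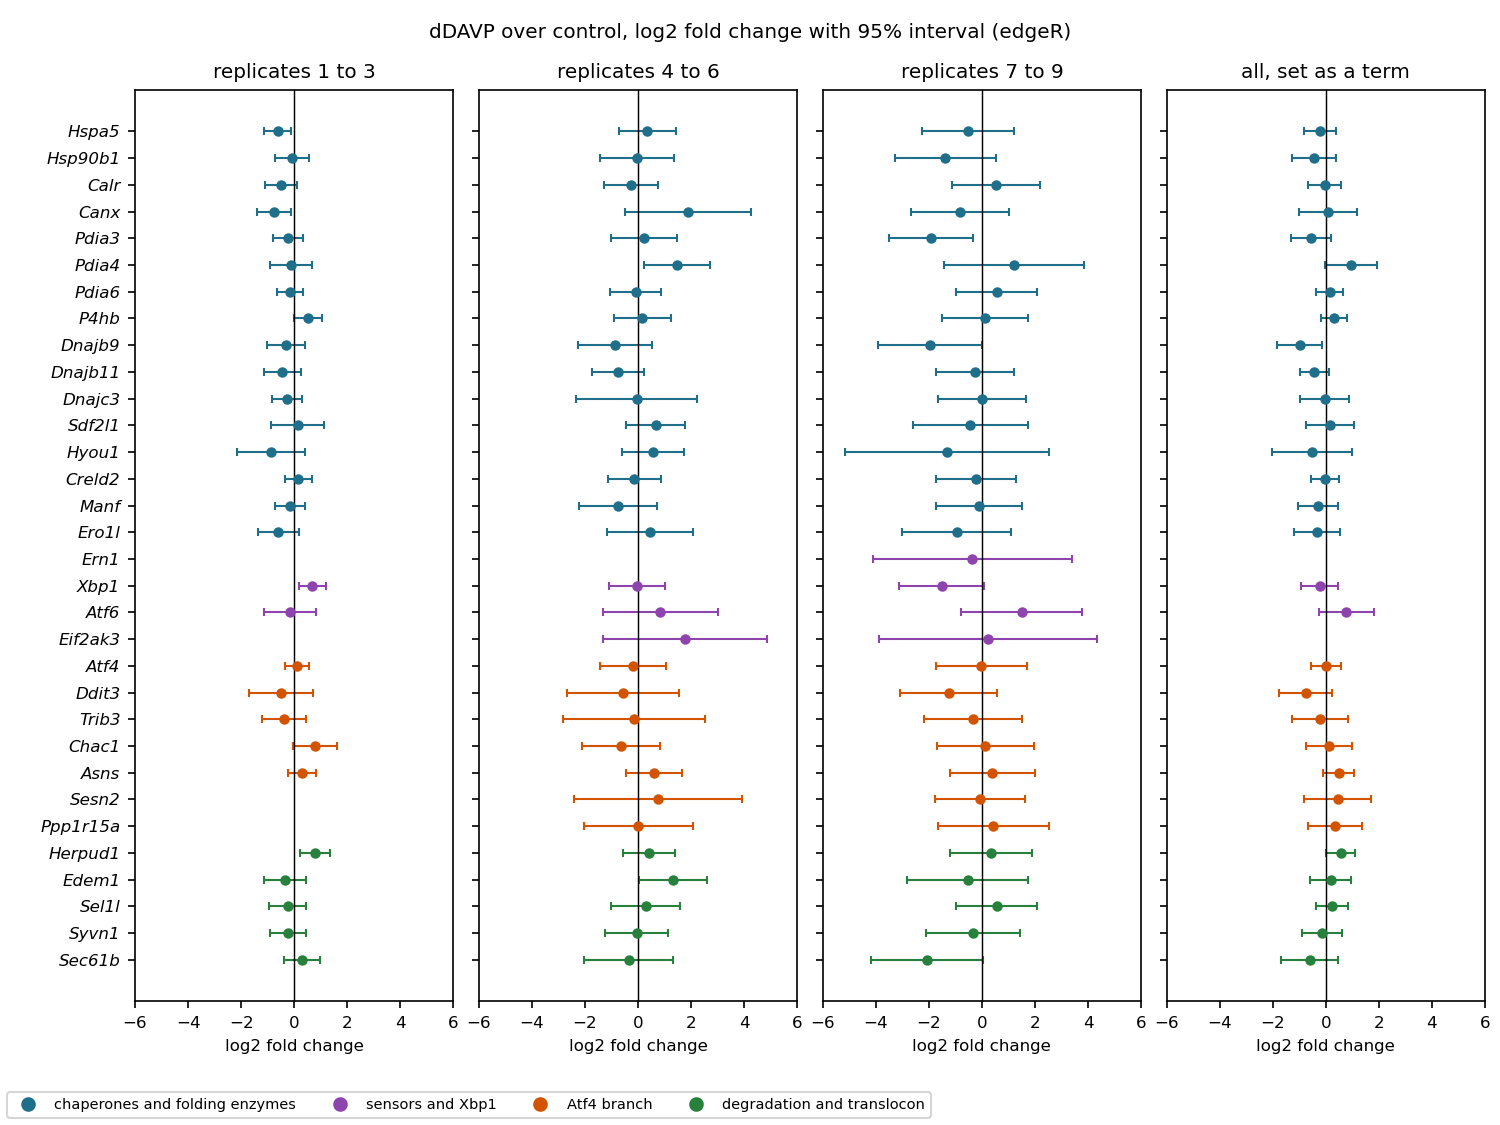
log2 fold change of dDAVP over control (horizontal axis) for each gene tested (rows, coloured by role) within the sets and over all libraries with the set as a term. Points are edgeR estimates and bars 95% intervals, which are narrowest in replicates 1 to 3; no gene had an adjusted p under 0.05.

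Among the 16 chaperones and folding enzymes, estimates lay on both sides of 0. With the set as a term, 5 were above 0 and 11 below, where 52.2% and 47.8% of all genes were, and their median log2 fold change was -0.13, against 0.02 for all genes tested. The median was -0.25, 0.06 and -0.35 in the 3 sets, against -0.01, -0.03 and -0.03 for all genes. With each library left out in turn, that of replicates 1 to 3 ran from -0.44 to -0.064. With libraries scaled by their totals alone it was -0.40 in replicates 4 to 6, where all genes had -0.38, and 0.36 in replicates 7 to 9, where all genes had 0.54.

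By TMM scaling, Hspa5 was lower in all 3 dDAVP libraries of replicates 1 to 3, without passing the test. It was at 1039, 914 and 879.6 normalised CPM in dDAVP libraries, against 1630.3, 1355 and 1219 in control libraries (log2 fold change -0.63, SE 0.23, edgeR adjusted p = 0.393). Per library total the groups overlapped, at 1022.8, 591 and 613 CPM in dDAVP libraries, against 1121, 1099.7 and 978 CPM in control libraries. Without dDAVP library 1 the estimate was -0.77 with an adjusted p of 0.0499, in a fit that called 774 genes, among them Ero1l, the oxidase of the disulfide isomerases (-1.14, adjusted p = 0.0263). Among replicates 4 to 6, Hspa5 was at 146, 142 and 264 in dDAVP libraries and 144, 146 and 131 in control libraries. Among replicates 7 to 9 it was at 359, 104 and 154 in dDAVP libraries and 193, 255 and 407 in control libraries. The groups overlapped in both of these sets, and with the set as a term the log2 fold change was -0.22 (95% interval -0.82 to 0.39).

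Canx was likewise lower in dDAVP libraries 1 to 3, at 249.9, 324 and 159 normalised CPM, against 396, 459 and 336 in control libraries 1 to 3 (log2 fold change -0.76, SE 0.29, edgeR adjusted p = 0.393). Among replicates 4 to 6 its level was far higher, at 6749, 6725 and 41701 in dDAVP libraries and 8031, 2700.4 and 4686 in control libraries. The value of 41701 is that of dDAVP library 6, without which the log2 fold change of this set was 0.32 rather than 1.88. The groups overlapped by TMM but not per library total, where Canx was at 4426, 6607 and 12775 CPM in dDAVP libraries, against 4394, 3305 and 4338 CPM in control libraries. Among replicates 7 to 9 it was at 10.7, 47.1 and 26.5 in dDAVP libraries and 78.2, 10.1 and 56.6 in control libraries, with overlapping groups. The interaction of set and treatment had an unadjusted p of 0.0403 and an edgeR adjusted p of 0.717.

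P4hb was, by TMM, higher in all 3 dDAVP libraries of replicates 1 to 3, at 723, 720.2 and 668 normalised CPM, against 465, 355 and 603 in control libraries (log2 fold change 0.52, SE 0.24, edgeR adjusted p = 0.474). Per library total the groups overlapped through control library 3, at 711, 466 and 466 CPM in dDAVP libraries, against 320, 288 and 484 CPM in control libraries. Values for replicates 4 to 6 were 134, 254 and 200.3 in dDAVP libraries and 151, 163 and 192 in control libraries. Values for replicates 7 to 9 were 264, 361 and 357 in dDAVP libraries and 287, 249 and 334 in control libraries. These groups overlapped, with log2 fold changes of 0.17 and 0.13.

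Pdia3, the disulfide isomerase that works with calnexin and calreticulin, had the lowest unadjusted p of the 32 genes in replicates 7 to 9. It was at 32.7, 27.5 and 25.2 normalised CPM in dDAVP libraries, against 95.7, 49.9 and 165 in control libraries, so that all dDAVP values were lower by TMM (log2 fold change -1.92, SE 0.74, edgeR adjusted p = 0.938). Per library total control library 8 fell inside the dDAVP range, at 42.7, 87 and 69.6 CPM in dDAVP libraries, against 222, 66.8 and 191 CPM in control libraries. Values for replicates 4 to 6 were 139, 137 and 28.5 in dDAVP libraries and 85.4, 89.1 and 71.1 in control libraries, the low value being that of dDAVP library 6. Pdia4, another disulfide isomerase, was at 13.8, 33.6 and 49.6 in dDAVP libraries 4 to 6, against 9.22, 12.2 and 12.8 in control libraries 4 to 6. All dDAVP values were higher there by TMM, though not per library total (log2 fold change 1.46, SE 0.57, edgeR adjusted p = 0.999). Dnajb9, a co-chaperone of BiP, had estimates below 0 in all 3 sets and of -0.98 with the set as a term (SE 0.41, edgeR adjusted p = 0.815). Its values in replicates 7 to 9 were 2.35, 3.23 and 1.66 in dDAVP libraries and 10.7, 2.28 and 14 in control libraries, with control library 8 inside the dDAVP range.

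Few genes had groups that did not overlap, and which ones depended on the scaling. By TMM, in replicates 1 to 3, 4 of 28 lay higher in dDAVP (Chac1, Herpud1, P4hb and Xbp1), against 7.47% of all genes, and 3 of 28 lower (Canx, Dnajc3 and Hspa5), against 6.93%. Higher in replicates 4 to 6 were 3 of 31 (Edem1, Eif2ak3 and Pdia4; 5.38% of all genes) and lower 1 of 31 (Dnajb11; 4.38%). Higher in replicates 7 to 9 were 0 of 32 (4.56% of all genes) and lower 2 of 32 (Pdia3 and Xbp1; 4.43%). Per library total, a scaling of these counts chosen after seeing the data, 3 of 28 lay higher in dDAVP in replicates 1 to 3 (Chac1, Herpud1 and Xbp1; 10.9% of all genes) and 1 lower (Canx; 3.79%). In replicates 4 to 6 it was 1 of 31 higher (Canx; 1.6%) and 0 lower (5.72%), and in replicates 7 to 9 it was 1 of 32 higher (Herpud1; 7.93%) and 1 lower (Sec61b; 2.31%). Chac1, Herpud1, Xbp1 and Canx, all in replicates 1 to 3, were thus separated by both scalings. In the fits with TMM, estimates were above 0 in all 3 sets for 3 of 28 genes (Asns, Herpud1 and P4hb), against 12.9% of all genes, and below 0 in all 3 for 8 of 28 (Ddit3, Dnajb11, Dnajb9, Dnajc3, Hsp90b1, Manf, Syvn1 and Trib3), against 13.3%.

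Xbp1, the transcription factor downstream of IRE1, was, by TMM, higher in dDAVP libraries in one set and lower in another. It was at 168, 199 and 226 normalised CPM in dDAVP libraries 1 to 3, against 119, 89.6 and 142 in control libraries 1 to 3, all dDAVP values being higher (log2 fold change 0.69, SE 0.23, edgeR adjusted p = 0.344). In replicates 7 to 9 it was at 37.2, 53 and 30.8 in dDAVP libraries and 132, 53.3 and 150.5 in control libraries, all dDAVP values being lower by TMM, library 8 by a small margin (-1.52, SE 0.74, adjusted p = 0.938). Per library total control library 8 fell inside the dDAVP range of replicates 7 to 9. Replicates 4 to 6 overlapped, at 22.3, 15.7 and 28.4 in dDAVP libraries and 25.8, 22.5 and 18.6 in control libraries. The interaction of set and treatment did not pass the test (unadjusted p 0.01, edgeR adjusted p = 0.541). Atf6 had a log2 fold change of 0.78 with the set as a term (95% interval -0.27 to 1.82, edgeR adjusted p = 0.856). Ern1 reached at most 1.42 normalised CPM, in control library 6. Eif2ak3 was at 1.36, 0.836 and 0.838 in dDAVP libraries 4 to 6, against 0.199, 0.0484 and 0.622 in control libraries 4 to 6, without overlap by TMM but with overlap per library total (log2 fold change 1.76, SE 1.42, edgeR adjusted p = 0.999), and rested on 2 to 31 counts in these libraries.

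**Figure D2:**
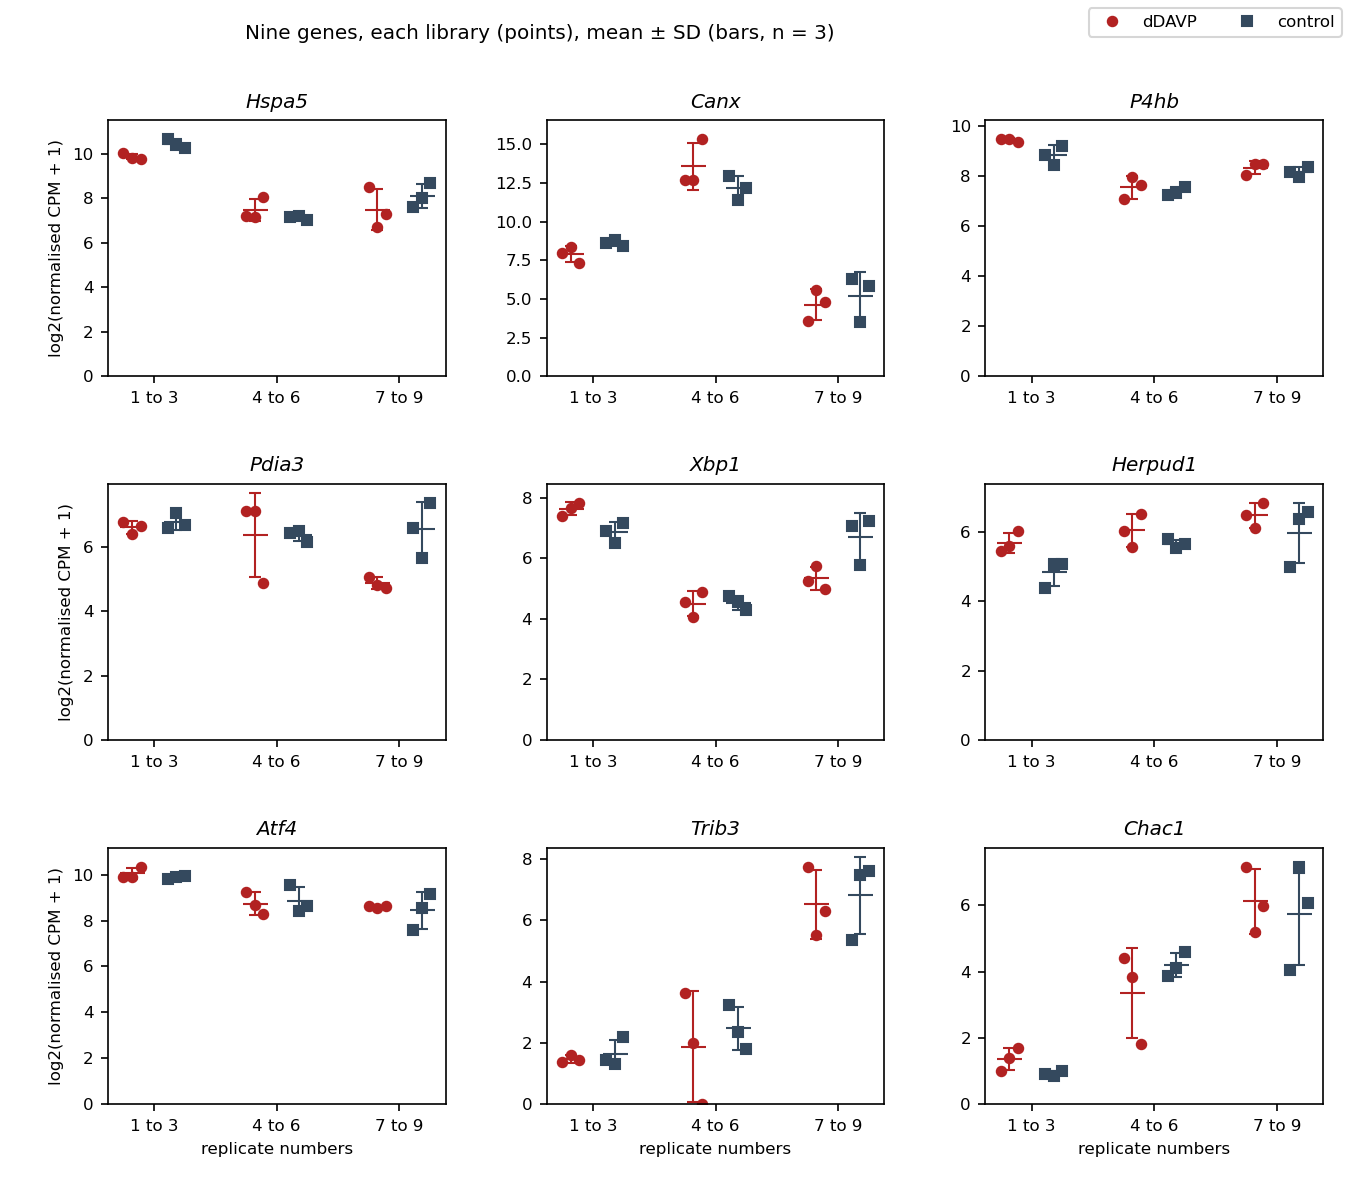
log2(normalised CPM + 1) of 9 genes (vertical axis) by set of replicate numbers (horizontal axis). Points are libraries, dDAVP left of control, with the mean and SD (n = 3); on this TMM scale Xbp1 lies higher in dDAVP libraries 1 to 3 and lower in dDAVP libraries 7 to 9 (with overlap per library total in the last), and Canx, Hspa5, Trib3 and Chac1 differ more between sets than between groups.

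In the Atf4 branch, 0 of 7 genes passed the test with the set as a term. The median log2 fold change was 0.12, against 0.02 for all genes, and 0.11, -0.14 and -0.03 in the 3 sets. With each library left out in turn, the median with the set term ran from -0.090 to 0.31, on both sides of 0, and that of replicates 1 to 3 from 0.012 to 0.38. By library totals alone the median was 0.67 in replicates 7 to 9, where all genes had 0.54. Atf4 itself was at 962, 962 and 1303 normalised CPM in dDAVP libraries 1 to 3, against 895, 963 and 985 in control libraries 1 to 3. Its values in replicates 4 to 6 were 611, 406 and 310.2 in dDAVP libraries and 749, 337 and 401 in control libraries. The groups overlapped there and in replicates 7 to 9, where the values were 392, 369 and 393 in dDAVP libraries and 193, 379 and 569 in control libraries. With the set as a term the log2 fold change was 0.012 (95% interval -0.55 to 0.57, edgeR adjusted p = 0.997).

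Ddit3, which encodes the transcription factor CHOP, had a log2 fold change of -0.75 with the set as a term (95% interval -1.75 to 0.25, edgeR adjusted p = 0.856). Its values in replicates 7 to 9 were 27.3, 8.93 and 8.77 in dDAVP libraries and 11.5, 78.4 and 17.7 in control libraries, with overlapping groups and control library 8 the highest. Trib3, a pseudokinase and target of ATF4 and CHOP, was at 215, 45.2 and 77.7 in dDAVP libraries 7 to 9 and at 40.0, 179.5 and 194 in control libraries 7 to 9. These groups overlapped too, and the log2 fold change with the set as a term was -0.22 (95% interval -1.27 to 0.83, edgeR adjusted p = 0.974).

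Chac1, a glutathione-degrading enzyme and target of ATF4, was low in replicates 1 to 3, at 1.01, 1.63 and 2.2 normalised CPM in dDAVP libraries, against 0.856, 0.791 and 0.991 in control libraries. All dDAVP values were higher there (log2 fold change 0.77, SE 0.38, edgeR adjusted p = 0.491). Its values in replicates 7 to 9 were 143, 35.6 and 62.8 in dDAVP libraries and 15.6, 138 and 65.6 in control libraries, with overlapping groups. Asns, asparagine synthetase, had log2 fold changes of 0.30, 0.61 and 0.39 in the 3 sets and of 0.48 with the set as a term (95% interval -0.10 to 1.07, edgeR adjusted p = 0.856). In replicates 1 to 3 it was at 146, 119 and 149 in dDAVP libraries and 94.4, 93.1 and 138 in control libraries, and the groups overlapped through control library 3. Sesn2, a stress-induced regulator of growth signalling, and Ppp1r15a, a subunit of the phosphatase of eIF2, were below the filter in replicates 1 to 3. With the set as a term, the log2 fold change was 0.45 for Sesn2 (95% interval -0.82 to 1.72) and 0.34 for Ppp1r15a (-0.67 to 1.36).

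Herpud1, an ER membrane protein of the degradation machinery, had estimates above 0 in every set. It was at 43, 47.8 and 64 normalised CPM in dDAVP libraries 1 to 3, against 20.0, 32.4 and 32.6 in control libraries 1 to 3, all dDAVP values being higher (log2 fold change 0.79, SE 0.27, edgeR adjusted p = 0.349). Values for replicates 4 to 6 were 64.8, 46.8 and 91.5 in dDAVP libraries and 54.4, 46 and 49.4 in control libraries. Those for replicates 7 to 9 were 88.3, 68.6 and 114 in dDAVP libraries and 30.9, 82 and 94.5 in control libraries. The groups overlapped in both by TMM; per library total those of replicates 7 to 9 did not, all dDAVP values being higher. With the set as a term the log2 fold change was 0.56 (95% interval 0.0054 to 1.12, edgeR adjusted p = 0.816). With limma voom and sample quality weights, an alternative that called 118 genes, it was 0.79 with an adjusted p of 0.0369.

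Edem1, a lectin that hands misfolded glycoproteins to degradation, was at 102, 103 and 195 normalised CPM in dDAVP libraries 4 to 6, against 66.9, 16.5 and 77.9 in control libraries 4 to 6. All dDAVP values were higher there by TMM, though not per library total (log2 fold change 1.32, SE 0.59, edgeR adjusted p = 0.999). Syvn1, the ubiquitin ligase of the degradation complex, had a log2 fold change of -0.16 with the set as a term (95% interval -0.91 to 0.60). Sec61b was at 139, 20.3 and 23.1 in dDAVP libraries 7 to 9, against 103, 151 and 472 in control libraries 7 to 9, and the groups overlapped by TMM through dDAVP library 7 (log2 fold change -2.06, SE 0.98, edgeR adjusted p = 0.938).

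Further genes of these processes were read from 4 lists: 38 other folding factors, 37 of degradation and translocation, 45 of the integrated stress response and ATF4 targets, and 22 of sensors and eIF2 control. With the set as a term, 0 of 35, 0 of 35, 0 of 40 and 0 of 19 tested were called, against the same 0.079% of all genes. In replicates 1 to 3, 0 of 32, 0 of 35, 1 of 34 and 0 of 18 tested were called, against 0.456% of all genes. In each of the other sets 0 were called, where 0% of all genes were. The gene called in replicates 1 to 3 was Atf3, a stress-induced transcription factor. Atf3 was lower there, with a log2 fold change of -2.51 (SE 0.38, edgeR adjusted p = 0.0105). It was at 0.451 to 0.665 normalised CPM in dDAVP libraries 1 to 3, against 2.44 to 3.87 in control libraries 1 to 3. In replicates 4 to 6 it was at 2.16 to 12.1 in dDAVP libraries, against 13.7 to 26.3 in control libraries. In replicates 7 to 9 it was at 5.14 to 15 in dDAVP libraries, against 14.5 to 21.7 in control libraries, and it was called in neither of these sets. Psat1, an enzyme of serine synthesis and ATF4 target, had a log2 fold change of 0.76 (SE 0.31, edgeR adjusted p = 0.815) with the set as a term.

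Differences between the sets were called for most of these genes, at a share near that of all genes. With treatment as a term, edgeR's F test across the 3 sets called 25 of 30, where it called 78% of all genes. Called were 13 of 16 chaperones and folding enzymes, Xbp1 but not Atf6, 6 of 7 genes of the Atf4 branch (all but Asns) and 5 of 5 of degradation and translocation. Scaling bears on these differences: the median log2 fold change of all genes for replicates 7 to 9 over 1 to 3 was 0.54 by TMM and 1.92 by library totals alone. The sets also differed in depth and ribosomal protein share, as given above, and the part of these in the differences was not tested.

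By TMM, the chaperones and folding enzymes with a set wholly above the others had it in replicates 1 to 3 or in replicates 4 to 6. Hspa5, Hsp90b1, Pdia6 and Ero1l, with Atf4 and Sel1l, had all 6 libraries of replicates 1 to 3 above the other 12 (6 of 30; 10.8% of all genes). Canx, Hyou1, Pdia4, Sdf2l1 and Edem1 had all 6 libraries of replicates 4 to 6 above the other 12 (5 of 30; 6.86%), and Trib3 those of replicates 7 to 9 (1 of 30; 3.43%). Per library total, a scaling of these counts chosen after seeing the data, 2 genes had this for replicates 1 to 3 (Hspa5 and Hsp90b1; 3.86% of all genes) and 3 for replicates 4 to 6 (Canx, Edem1 and Hyou1; 3.73%). For replicates 7 to 9 there were then 6 (Chac1, Creld2, Ddit3, Herpud1, Sesn2 and Trib3; 19.7%), of which Creld2 is a folding factor. The lowest, median and highest levels of Hspa5 were 131, 145 and 264 normalised CPM in replicates 4 to 6, against 879.6, 1129 and 1630.3 in replicates 1 to 3 (log2 fold change -2.82, SE 0.38, edgeR adjusted p = 1.96e-06). Those of Canx were 2700.4, 6737 and 41701 in replicates 4 to 6, against 159, 330.0 and 459 in replicates 1 to 3 (5.17, SE 0.73, adjusted p = 3.63e-06). Canx thus ran opposite to Hspa5 between these sets. Hyou1, an exchange factor of BiP, was at 11, 21.5 and 35.6 in replicates 4 to 6, against 0.229, 0.959 and 1.41 in replicates 1 to 3 (4.75, SE 0.99, adjusted p = 0.00036). The lowest of these, in dDAVP library 1, lay near the level of 3 counts there (0.137 normalised CPM). The size of this fold change is therefore uncertain.

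For replicates 4 to 6 over 1 to 3, 9 of 30 genes were called higher (34.1% of all genes) and 11 lower (21.8%), and these 20 were called the same way with TMM, DESeq2's size factors and library totals, as were 28.8% of all genes higher and 18.6% lower. The chaperones and folding enzymes among them were 4 higher and 7 lower. The median of all 16 was -1.23 relative to that of all genes by TMM, and -1.20 and -1.24 by the other scalings. Of the 35 other folding factors tested, 9 were called higher and 9 lower by TMM. Their median log2 fold change was -0.035, against 0.51 for all genes. For replicates 7 to 9 over 1 to 3, 8 of 30 were called higher (39% of all genes) and 12 lower (24.7%). Under all 3 scalings 8 higher (35.9% of all genes) and 3 lower (7.91%) were called, the lower ones being Hspa5, Hsp90b1 and Canx, and 11 genes, Calr, P4hb, Edem1, Sel1l and Xbp1 among them, changed direction with scaling. For replicates 7 to 9 over 4 to 6, 9 of 30 were called higher (28.1%) and 7 lower (20.1%), with a log2 fold change of -8.24 for Canx. Under all 3 scalings it was 9 higher (27.6%) and 3 lower (Canx, Edem1 and Hyou1; 8.09%), and 7 genes changed direction.

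In the Atf4 branch, 5 of 7 genes were called higher in replicates 7 to 9 than in replicates 1 to 3, where 39% of all genes were by TMM and 57.4% by library totals. Of these 5, only Trib3, Chac1 and Ddit3 were also tested within replicates 1 to 3. Trib3 was at 40.0, 129 and 215 normalised CPM (lowest, median and highest) in replicates 7 to 9, against 1.48, 1.7 and 3.51 in replicates 1 to 3 (log2 fold change 5.96, SE 0.76, edgeR adjusted p = 1.48e-06). Chac1 was at 15.6, 64.2 and 143 in replicates 7 to 9, against 0.791, 0.999 and 2.2 in replicates 1 to 3 (5.96, SE 0.62, adjusted p = 2.59e-07). For both genes every dDAVP and control library of replicates 7 to 9 lay above every library of replicates 1 to 3. Sesn2 (5.58, SE 0.89), Ppp1r15a (3.94, SE 0.67) and Ddit3 (2.17, SE 0.61) were also called higher, and the direction of these 5 genes held under all 3 scalings. Sesn2 and Ppp1r15a were below the filter on low counts in replicates 1 to 3 and entered this test through the other sets. Their calls as higher therefore follow in part from the filter. They were at 0.0901 to 0.423 and 0.270 to 0.665 normalised CPM in replicates 1 to 3, so the size of their fold changes is uncertain. Atf4 mRNA ran the other way by TMM, at 193, 386 and 569 in replicates 7 to 9, against 895, 963 and 1303 in replicates 1 to 3 (-1.40, SE 0.34, adjusted p = 0.00101), and had -0.11 with no call by library totals. The middle gene of the 7 was Ppp1r15a under each scaling, so their median shares its uncertainty. Among the 5 genes tested within replicates 1 to 3, the middle gene by TMM was Ddit3 (2.17, where all genes had a median of 0.54). The median of the 7 genes, Sesn2 and Ppp1r15a included, was 3.41 above that of all genes on the log2 scale by TMM. It was 3.46 above by DESeq2's size factors and 3.07 by library totals. Other genes of the integrated stress response and ATF4 targets were near all genes by TMM. Of 40 tested, 18 were called higher and 8 lower, where 39% and 24.7% of all genes were. Their median log2 fold change was 0.59, against 0.54 for all genes.

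The degradation genes did not move together between sets. Edem1 was at 16.5, 89.8 and 195 normalised CPM in replicates 4 to 6, against 1.63, 2.31 and 3.11 in replicates 1 to 3 (log2 fold change 5.27, SE 0.53, edgeR adjusted p = 3.19e-08). Syvn1 was at 20.7, 48.8 and 72.2 in replicates 4 to 6, against 2.54, 2.91 and 3.48 in replicates 1 to 3 (3.98, SE 0.50, adjusted p = 7.12e-07). Sel1l, the partner of Syvn1 in the ligase complex, was lower, at 6.7, 10.9 and 18.1 in replicates 4 to 6, against 33.5, 52.1 and 67 in replicates 1 to 3 (-2.13, SE 0.37, adjusted p = 5.39e-05).

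**Figure D3:**
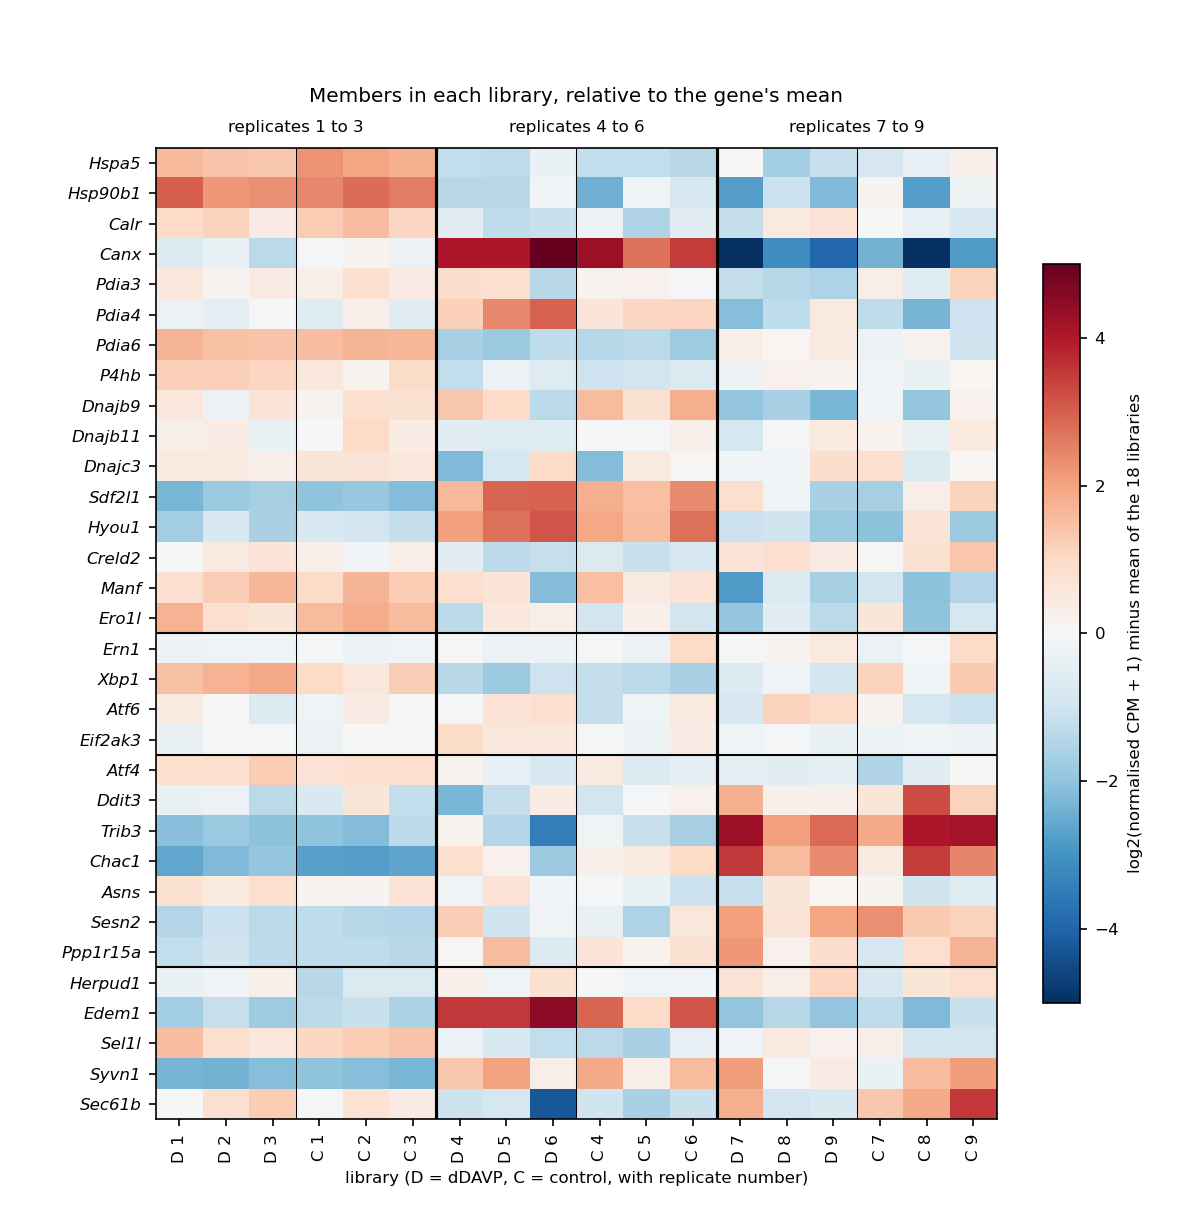
log2(normalised CPM + 1) minus the gene's mean over the 18 libraries (colour, cut off at 5 in either direction) for the 32 genes (rows, by role) in each library (columns, dDAVP left of control in each set). Colour follows the sets in both groups: Hspa5 and Hsp90b1 are high in replicates 1 to 3, Canx and Edem1 in replicates 4 to 6, and Trib3 and Chac1 in replicates 7 to 9.

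**Figure D4:**
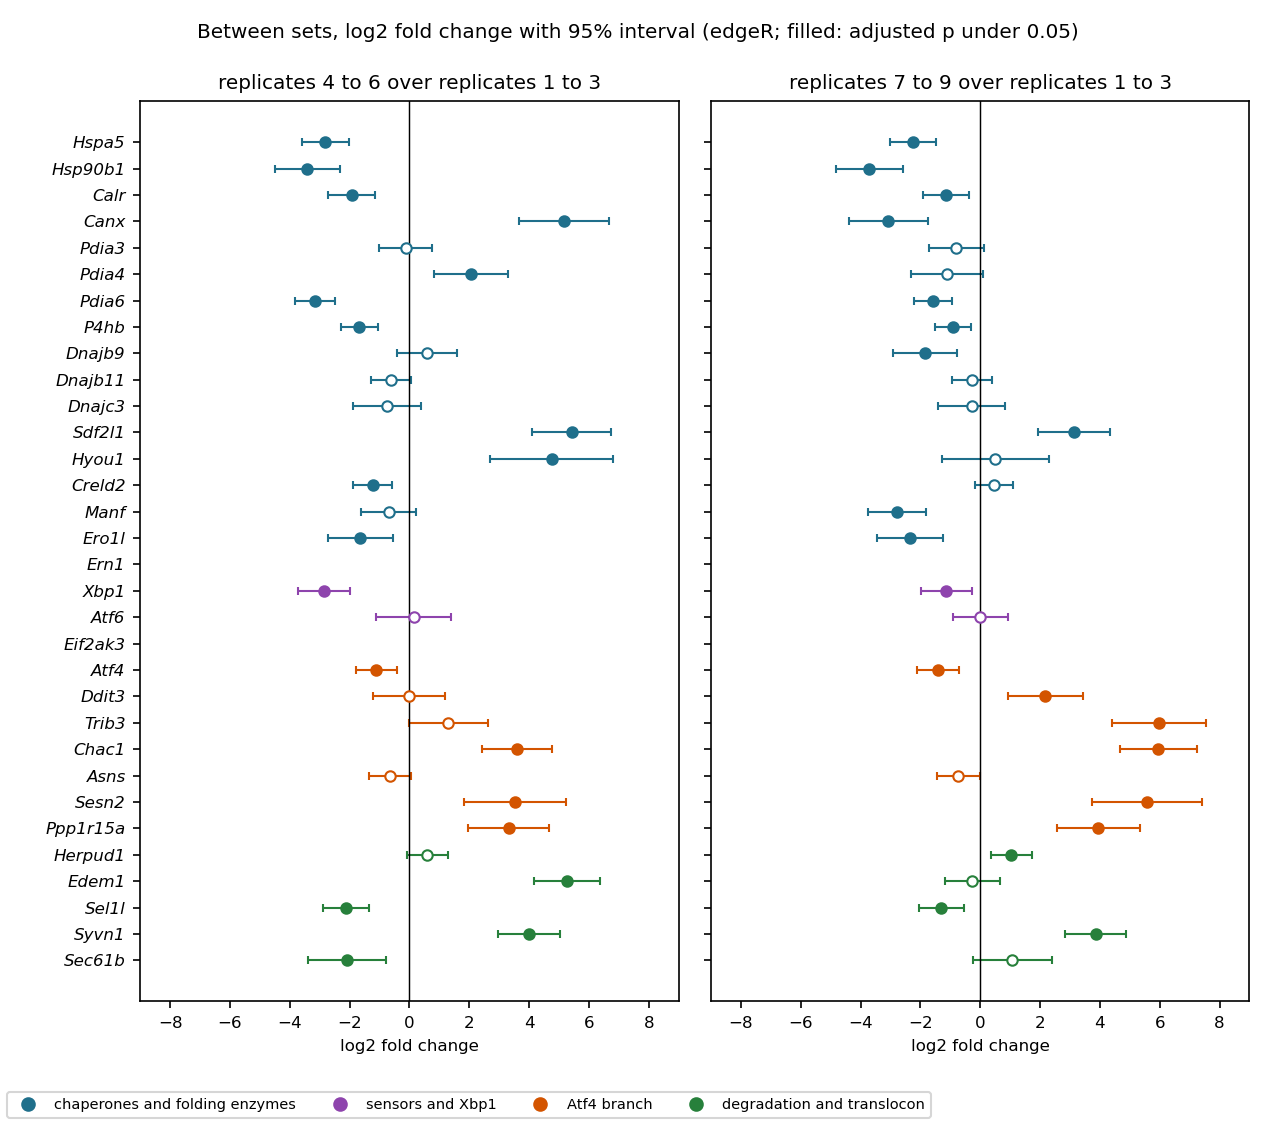
log2 fold change (horizontal axis) of replicates 4 to 6 and of replicates 7 to 9 over replicates 1 to 3, with treatment as a term, for the genes tested (rows, coloured by role). Bars are 95% intervals and filled points have an edgeR adjusted p under 0.05. For replicates 7 to 9, Trib3, Chac1 and Sesn2 lie above 5, and 11 genes change direction with scaling. Sesn2 and Ppp1r15a were below the filter on low counts within replicates 1 to 3.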

How the data were processed

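RNA-seq was analysed for 18 libraries of mpkCCD cells (9 dDAVP, 9 control), grouped by the labels' titles. The submitters' processing notes name the aligner STAR (2.4.0.1), HTSeq, SAMtools and build mm10 of the mouse genome; strand setting and annotation release are not given in the sources used here. The authors deposited raw counts per gene and FPKM values; the ratio of a gene's count per library total to its deposited FPKM varied between libraries by a median of 0.0193%. The 32 genes, the lists and the sets were chosen with earlier results of these data known.

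Counts were tested with edgeR 4.0.16 (quasi-likelihood, TMM, filterByExpr), two-sided, with Benjamini-Hochberg adjustment over all genes tested and a threshold of 0.05; the rows of the 32 genes were then read. The scripts were tested on simulated data. Alternatives were DESeq2 1.42.0 and its size factors, library totals, no filter, a strict filter (1 CPM), limma 3.58.1 (voom, voom with sample weights, and log2(FPKM + 0.1) or log2(FPKM + 1)), the replicate block, and libraries or sets left out. Counts of groups or sets without overlap were repeated with DESeq2's size factors and library totals, chosen after seeing the data. R 4.3.3, Python 3.11.15, pandas 2.3.3, numpy 2.4.6 and matplotlib 3.10.9 were used. Loci and overlaps came from GENCODE M21, and promoters from RefSeq, in which Ero1l was matched by its synonym.

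Genes were named by a rule: the 3 of highest mean FPKM in each role, the Atf4 branch, and any with an unadjusted p under 0.05 for dDAVP. Eif2ak3 for dDAVP, and others named between sets, were chosen after their values were seen. Replicate numbers were checked for pairing: deviations from group means correlated at 0.398 to 0.926 between equal numbers, across genes. After removal of set means the correlations lay between -0.706 and 0.430, 6 of 9 of them below 0, so the first values do not show a pairing beyond the sets. The fits reported have no block, and the replicate block is an alternative whose values stand beside the counts it moved. Within a group and set, no pair of libraries had a chi-square over its degrees of freedom below 65.9, so none was counted as a duplicate. A floor of 3 counts corresponds to 0.0143 to 0.359 normalised CPM by library and covers counting error only.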

Additional observations from a re-analysis of the deposited data

Results flagged for a closer look

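Each gene was examined for a library far from the other libraries of its group of 9, over 64 groups, of which 4 stood out; chance alone gives about 1 such group in 20. In dDAVP libraries, Asns was at 37.6 normalised CPM in library 7, against 75.6 in the nearest other, and Sec61b was at 1.2 in library 6, against 18.4 in the nearest other. dDAVP library 6 is the library with the fewest genes detected (10282). In control libraries, Dnajc3, a co-chaperone of BiP, was at 1.13 in library 4, against 4.93 in the nearest other, and Eif2ak3 was at 0.622 in library 6, against 0.264 in the nearest other. The part of depth or preparation in these values was not tested.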

How the results depend on the processing

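Of 3032 values of single genes in the 5 comparisons of dDAVP with control under alternative settings, 3029 stayed on their side of the threshold, 3 passed it and 0 changed direction as calls; 293 values that were not called in either fit changed sign. The 3 are Herpud1 with sample quality weights, and Hspa5 and Ero1l in replicates 1 to 3 without dDAVP library 1. The replicate block changed no call of a gene of the response. Counts of all genes called moved more. Without covariates (0 called), limma voom and the replicate block gave 1, FPKM 2 with either pseudocount, replicates 7 to 9 left out 2, voom with weights 11 and DESeq2 12. With the set term (8 called), the replicate block gave 1, FPKM 4, library totals 5, DESeq2 31, voom with weights 118 (1 of them among the 30), and leaving out replicates 1 to 3 or 4 to 6 gave 0. In replicates 1 to 3 (41 called), the replicate block gave 101, DESeq2 123 and no filter 207. In replicates 4 to 6 (0 called; 479 genes at an unadjusted p under 0.05), library totals and no filter gave 1 and DESeq2 29. In replicates 7 to 9 (0 called; 590 at an unadjusted p under 0.05), the replicate block gave 3, library totals 7, no filter 30 and DESeq2 94. For the interaction (0 called; 671 at an unadjusted p under 0.05), no filter gave 35. Leaving out each library in turn gave 0 to 1 genes called without covariates, 4 to 9 with the set term, 13 to 774 in replicates 1 to 3 (774 without dDAVP library 1; 0 to 2 of them among the 28), 0 to 2 in replicates 4 to 6, 0 to 98 in replicates 7 to 9 (98 without dDAVP library 7) and 0 to 45 for the interaction. Median log2 fold changes by library totals were -0.40 for chaperones in replicates 4 to 6, where all genes had -0.38. In replicates 7 to 9 they were 0.36 for chaperones and 0.67 for the Atf4 branch, where all genes had 0.54. By TMM these medians were 0.06, -0.35 and -0.03. With each library left out they ran from -0.093 to 0.36, -0.43 to -0.046 and -0.46 to 0.091. Those of the set term (chaperones) and of the Atf4 branch in replicates 4 to 6 ran from -0.38 to -0.092 and from -0.48 to 0.42. Between sets, the genes of the response called lower in replicates 7 to 9 than in replicates 1 to 3 were 12 by TMM (24.7% of all genes) and 3 by library totals (7.92%). Counts of groups or sets without overlap also moved with scaling, as the report gives. The cause of these movements was not tested. Ern1 and Eif2ak3 were below the filter over all libraries, and so were Sesn2 and Ppp1r15a in replicates 1 to 3.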

Other observations

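A few genes of protein entry into the ER, named after their values were seen, were at high levels in replicates 4 to 6 by TMM, while others of the same list were low there. Ssr1, a subunit of the translocon-associated complex, was at 16074 to 73292 normalised CPM in dDAVP libraries and at 11468 to 31199 in control libraries of that set, whereas in replicates 1 to 3 it was at 148 to 199 in dDAVP libraries and 175 to 262 in control libraries. Kdelr2, a receptor that returns chaperones to the ER, was at 4122 to 19454 in dDAVP libraries and 2357 to 7051 in control libraries of replicates 4 to 6, and at 17.5 to 39.2 in dDAVP libraries and 14.2 to 46.5 in control libraries of replicates 1 to 3. In replicates 7 to 9 Ssr1 was at 30 to 107 in dDAVP libraries and 46 to 152 in control libraries. Ssr2, another subunit of that complex, was lower in replicates 4 to 6 than in replicates 1 to 3 (log2 fold change -4.68, SE 0.44, edgeR adjusted p = 1.11e-08). Of the 35 genes of degradation and translocation tested in this comparison, 9 were called higher (34.1% of all genes) and 15 lower (21.8%). Eif2s1, a subunit of eIF2, ran the other way, at 24 to 39.8 in dDAVP libraries and 27.4 to 38.5 in control libraries of replicates 4 to 6, and at 489 to 619 in dDAVP libraries and 566 to 700 in control libraries of replicates 1 to 3. Across the sets, edgeR's F test called 26 of 35 other folding factors, 30 of 35 genes of degradation and translocation, 32 of 40 of the stress response and 15 of 19 of sensors and eIF2 control, where it called 78% of all genes.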
